A study of Rattus norvegicus with 10 samples.

Results

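Messenger RNA of 9 genes that regulate necroptosis and apoptosis was examined in fetal rat hearts. The genes are Ripk1, Ripk3, Mlkl, Casp8, Casp9, Bax, Bak1, Bcl2 and Bcl2l1, found by their symbols among 18025 genes in the deposited expression table, and all 9 were among the 14542 genes that averaged 0.1 FPKM or more (a read number scaled to gene length and library size) across the libraries. They were chosen with the comparison of the groups already known, so that their differences between groups are a description and carry no test. All hearts were labelled wild type (wt) and came from fetuses at embryonic day 19.5. The dams were Sprague-Dawley rats aged 3 months. By the methods of the study, they were mated first and were assigned to a group after a vaginal plug was seen. Its introduction instead speaks of hyperglycemia before pregnancy. In the control (CON) group, dams received citric acid buffer on 3 days in a row. In the hyperglycemia (HG) group, they received streptozotocin, which destroys pancreatic beta cells, in the same buffer on 3 days in a row, and a non-fasting blood glucose above 16 mM was required 7 days later. Each group has 5 libraries, and litter and fetal sex are not given in the labels. P-values therefore measure the spread between these libraries, which may share a litter.

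Apoptosis and necroptosis are forms of regulated cell death that compete for the same proteins. Death receptors such as the TNF receptor assemble RIPK1, a kinase and scaffold, with FADD and caspase-8. Caspase-8 starts apoptosis and also cleaves the RIP kinases. Where caspase-8 is not active, RIPK1 can bind RIPK3, and RIPK3 phosphorylates MLKL, which then breaks the plasma membrane. Apoptosis from within the cell runs through mitochondria. BAX and BAK, the proteins of Bax and Bak1, permeabilize the outer mitochondrial membrane, cytochrome c leaves, and APAF1 assembles with it to activate caspase-9. BCL2 and BCL-xL, the product of Bcl2l1, hold BAX and BAK in check. In the heart these pathways are best known from ischemic injury, and RIPK3 can also act there on CaMKII and on the mitochondrial permeability pore. Most of these steps are set by protein binding, cleavage and phosphorylation, which mRNA does not show.

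The sequences around the annotated starts of the 3 genes with the largest differences are given so that the genes can be located and compared. RefSeq (build GRCr8, which is not the build of the deposited values) had windows of 250 bases before to 50 bases after the start for 7 of the 9 genes. Each is written on the gene's own strand, 5′ to 3′, with motif matches in capitals.
Ripk3, chr15:33261976-33262275, minus strand: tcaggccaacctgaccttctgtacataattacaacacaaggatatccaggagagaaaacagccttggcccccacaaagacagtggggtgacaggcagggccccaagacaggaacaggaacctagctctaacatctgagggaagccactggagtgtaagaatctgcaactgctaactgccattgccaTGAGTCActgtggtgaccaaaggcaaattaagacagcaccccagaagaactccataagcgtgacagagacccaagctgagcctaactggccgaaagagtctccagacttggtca
Mlkl, chr19:56213809-56214108, minus strand: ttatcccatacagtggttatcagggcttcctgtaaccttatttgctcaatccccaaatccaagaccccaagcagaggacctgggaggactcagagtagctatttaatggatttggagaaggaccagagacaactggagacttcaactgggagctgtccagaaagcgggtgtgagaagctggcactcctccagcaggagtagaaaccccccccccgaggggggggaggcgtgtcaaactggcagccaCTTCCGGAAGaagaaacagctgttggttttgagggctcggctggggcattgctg
Bcl2, chr13:23366851-23367150, minus strand: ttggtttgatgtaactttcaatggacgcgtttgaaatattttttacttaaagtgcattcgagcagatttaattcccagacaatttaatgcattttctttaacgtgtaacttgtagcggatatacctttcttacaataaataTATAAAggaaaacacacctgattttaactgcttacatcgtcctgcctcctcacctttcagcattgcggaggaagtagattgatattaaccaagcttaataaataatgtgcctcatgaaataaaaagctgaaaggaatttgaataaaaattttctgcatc
The capitals mark an AP-1 motif in Ripk3, at -64 from the start, 2 overlapping ETS motifs in Mlkl, at -4 and -1, and a TATA motif in Bcl2, at -109. Each motif was searched on both strands in all 33469 RefSeq windows. The AP-1 motif was spelled TGANTCA and occurred in 7.33% of them. The ETS motif was spelled CCGGAAG and occurred in 8.75%. The TATA motif was spelled TATAAA and occurred in 14.2%. The 3 windows had no match to a GC box (GGGCGG), which was present in 33.1% of all windows. They also had none to a cyclic AMP response element (TGACGTCA), present in 1.83%, and none to a GAS element (TTCNNNGAA), present in 8.87%. An interferon response core (GAAANNGAA) occurred in 9.71% of all windows and in none of the 3. The Bcl2 window had 32.7% G and C and 7 CpG pairs, lower in G and C than most windows, whose median was 51.7%. The Ripk3 window had 51.0% G and C and 2 CpG pairs, and the Mlkl window 54.3% and 5. A match is a string of letters and does not show that a factor binds there.

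The libraries held between 16672876 and 19109844 reads on genes, recovered from the step between FPKM values, and the 9 genes had between 54 and 1273 reads each in a library. The heart label was checked by its markers, and all 6 cardiomyocyte markers were abundant (for Tnnt2, cardiac troponin T, a mean of 3953 FPKM in CON libraries and 3246 in HG libraries). Of 14542 genes tested with limma on log2(FPKM + 0.1), 40.1% were called at a Benjamini-Hochberg adjusted p under 0.05, 28.4% as higher in HG and 11.8% as lower. The groups did not overlap for 27.4%. A share of 1.94% were also past a 2-fold change, that is an absolute log2 fold change above 1. FPKM depend on the rest of the library, and the log2 fold change had a median of 0.09 over all genes. After division by median-of-ratios factors it was 0.00582. Of the called genes 29.3% were lower in HG, which became 52.9% with these factors and 47.0% after quantile normalization. One library, CON replicate 3, stood apart in liver genes such as albumin, and values without it are given beside the counts below and for the liver genes.

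Among the 9 genes, the largest difference between groups was that of Ripk3, followed by Mlkl and Bcl2. The order of Mlkl and Bcl2 was the opposite without HG replicate 5 (0.30 and 0.43 on the log2 scale). It was also the opposite without CON replicate 4 (0.45 and 0.46) and with a pseudocount of 1 (0.33 and 0.38). Ripk3, Bcl2 and Bax were past the threshold of the test and higher in HG, which is 3 of 9 beside the 40.1% of all genes tested, and Ripk3 alone was past a 2-fold change. The groups did not overlap for 2 of the 9 genes, Ripk3 and Bcl2, beside 27.4% of all genes tested. The median log2 fold change of the 9 genes was 0.12, beside 0.09 for all genes tested. Under median-of-ratios factors 2 of the 9 genes, Ripk3 and Bcl2, were past the threshold, and without CON replicate 3 it was also these 2. Over all genes, 4822 were called under median-of-ratios factors and 5121 without CON replicate 3, against 5836 (40.1%) in the main fit. Since the 9 genes were chosen by this contrast, their counts describe the choice and support nothing.

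**Figure D1:**
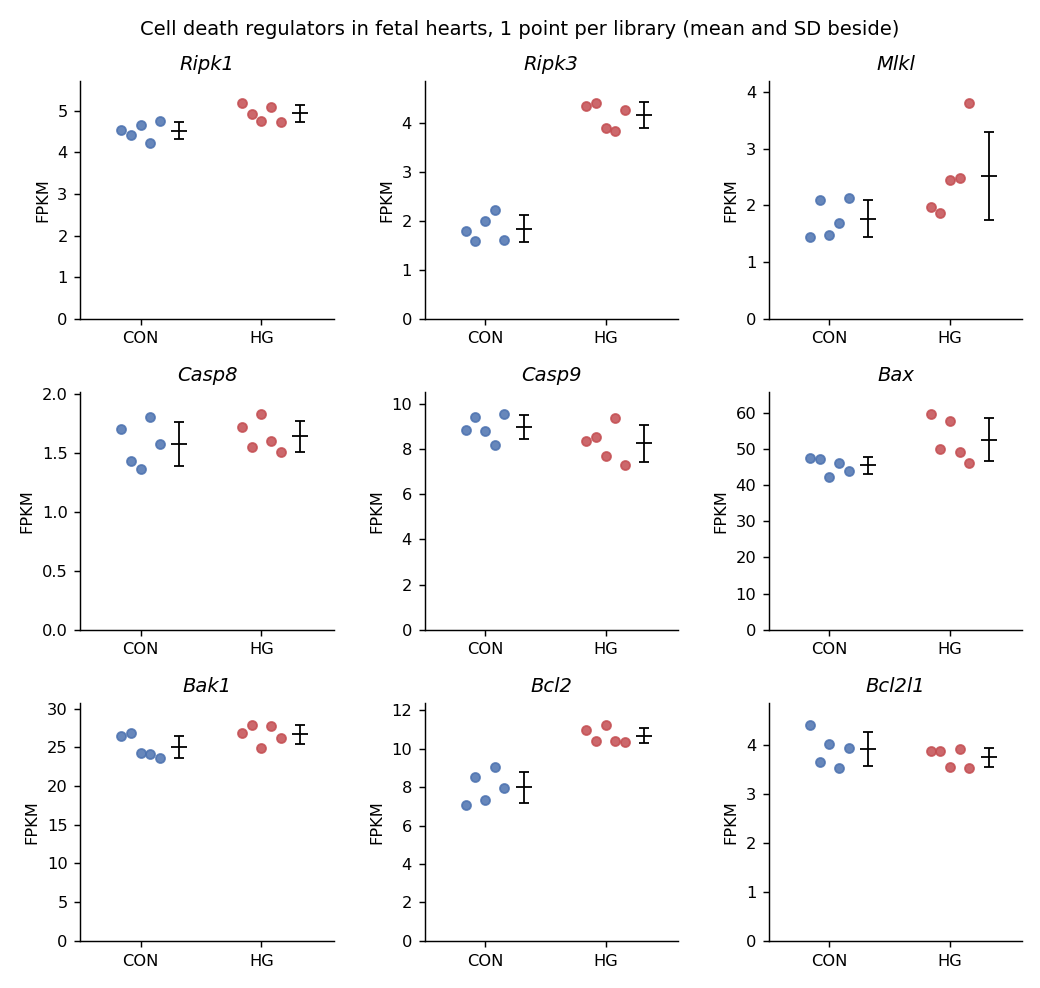
FPKM of the 9 genes (vertical axes, from 0) in CON and HG hearts, with 1 point per library and, beside the points, the mean with the SD of 5 libraries. The HG points lie above all CON points for Ripk3 and Bcl2, HG replicate 5 is the highest point for Mlkl, and the groups overlap for Mlkl and the other 6 genes.

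Ripk3 (NCBI Gene 246240), the kinase that commits a cell to necroptosis, measured 1.78, 1.58, 2.00, 2.21 and 1.60 FPKM in the 5 CON libraries and 4.34, 4.41, 3.90, 3.83 and 4.26 FPKM in the 5 HG libraries. The lowest HG library lay above the highest CON library by more than 1 FPKM, and no library of either group stood apart from its group. The means were 1.84 ± 0.270 FPKM in CON libraries and 4.15 ± 0.266 FPKM in HG libraries (SD, n = 5 each), a ratio of 2.26. On the log2(FPKM + 0.1) scale the difference was 1.14 with a standard error of 0.098. These values rested on 57 to 81 reads per library in CON and 136 to 167 in HG. Among all genes tested, the log2 fold change of Ripk3 was the 91st from the top. It was 1.05 under median-of-ratios factors and 1.14 with the level of Y chromosome genes as a covariate, and 1.18 without CON replicate 3.

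Mlkl (NCBI Gene 690743), the executioner of necroptosis and the substrate of RIPK3, measured 1.44, 2.09, 1.48, 1.70 and 2.13 FPKM in CON and 1.97, 1.86, 2.45, 2.49 and 3.82 FPKM in HG. HG replicates 3, 4 and 5 lay above every CON library, whereas HG replicates 1 and 2 lay within the CON range. The means were 1.76 ± 0.328 and 2.52 ± 0.779 FPKM (SD, n = 5 each), and the log2 difference was 0.46 with a standard error of 0.18. HG replicate 5 had 132 reads on Mlkl against 54 to 91 in the other 9 libraries. Without it the log2 difference was 0.30, over 1.5 times smaller.

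Ripk1 (NCBI Gene 306886), the kinase and scaffold upstream of both pathways, measured 4.55, 4.41, 4.67, 4.23 and 4.75 FPKM in CON and 5.20, 4.92, 4.75, 5.10 and 4.73 FPKM in HG. The ranges overlapped, with 3 HG libraries above the highest CON library. The means were 4.52 ± 0.207 and 4.94 ± 0.207 FPKM (SD, n = 5 each). The log2 difference of 0.12 (standard error 0.058) was close to the median of all genes and was 0.04 under median-of-ratios factors.

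The 3 necroptosis genes therefore did not shift by the same amount within a library. The ratio of Ripk3 to Ripk1, in FPKM, was 0.408 ± 0.0731 in CON libraries and 0.841 ± 0.0616 in HG libraries (SD, n = 5 each), with a highest CON value of 0.523 and a lowest HG value of 0.751. Such ratios do not depend on the scaling of a library. The ratio of Ripk3 to Mlkl was 1.08 ± 0.301 in CON and 1.77 ± 0.514 in HG, and here the ranges overlapped, because HG replicate 5 had a ratio of 1.12. The ratio of Ripk3 to Casp8 was 1.18 ± 0.183 in CON and 2.55 ± 0.303 in HG, without overlap. These ratios are made of the same values that chose the genes and are given as a description.

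Casp8 (NCBI Gene 64044), the caspase that starts receptor-driven apoptosis and restrains necroptosis, measured 1.70, 1.43, 1.36, 1.80 and 1.57 FPKM in CON and 1.72, 1.55, 1.83, 1.60 and 1.51 FPKM in HG. The 2 groups covered nearly the same range. The means were 1.57 ± 0.185 and 1.64 ± 0.133 FPKM (SD, n = 5 each), and the log2 difference of 0.06 (standard error 0.10) turned to -0.03 under median-of-ratios factors. Casp9 (NCBI Gene 58918), the caspase activated on the apoptosome, measured 8.87, 9.41, 8.82, 8.19 and 9.56 FPKM in CON and 8.34, 8.53, 7.69, 9.40 and 7.28 FPKM in HG. HG replicates 3 and 5 lay below all CON libraries and the other 3 within their range. The means were 8.97 ± 0.545 and 8.25 ± 0.814 FPKM (SD, n = 5 each), with a log2 difference of -0.12 (standard error 0.071) and of -0.21 under median-of-ratios factors.

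Bax (NCBI Gene 24887), a pore-forming protein of the outer mitochondrial membrane, was the most abundant of the 9 genes, with 47.5, 47.3, 42.3, 46.0 and 43.9 FPKM in CON and 59.7, 49.8, 57.8, 49.2 and 46.2 FPKM in HG. HG replicates 1 to 4 lay above all CON libraries and HG replicate 5 lay among them. The means were 45.4 ± 2.25 and 52.5 ± 5.85 FPKM (SD, n = 5 each), and the log2 difference was 0.20 (standard error 0.068). Under median-of-ratios factors it was 0.11. Bak1 (NCBI Gene 116502), its partner in pore formation, measured between 23.6 and 26.8 FPKM in CON and between 24.9 and 27.9 FPKM in HG, with overlapping ranges. Its means were 25.1 ± 1.45 and 26.7 ± 1.21 FPKM (SD, n = 5 each), and its log2 difference of 0.09 (standard error 0.048) was 0.000904 under median-of-ratios factors.

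Bcl2 (NCBI Gene 24224), the founding pro-survival protein of the family, measured 7.07, 8.55, 7.35, 9.04 and 7.96 FPKM in CON and 10.96, 10.4, 11.2, 10.4 and 10.4 FPKM in HG. Every HG library lay above every CON library, and the HG libraries were closer to each other than the CON libraries were. The means were 7.99 ± 0.817 and 10.7 ± 0.394 FPKM (SD, n = 5 each), with a log2 difference of 0.42 (standard error 0.068) and of 0.33 under median-of-ratios factors. Bcl2l1 (NCBI Gene 24888), which encodes the related BCL-xL, measured 4.41, 3.66, 4.02, 3.53 and 3.95 FPKM in CON and 3.88, 3.87, 3.55, 3.92 and 3.52 FPKM in HG. The groups overlapped, and the means were 3.91 ± 0.345 and 3.75 ± 0.196 FPKM (SD, n = 5 each). The log2 difference was -0.06 (standard error 0.073).

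**Figure D2:**
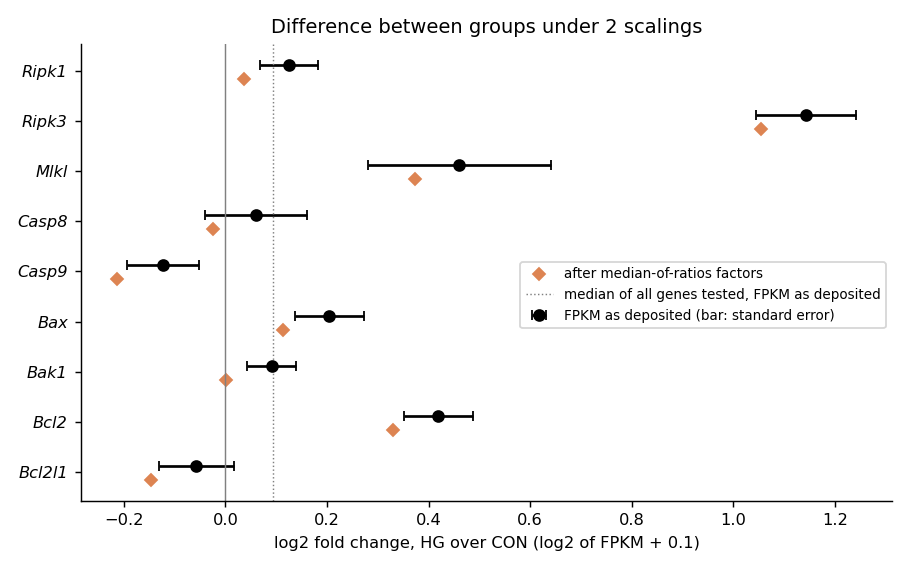
Log2 fold change of HG over CON for each of the 9 genes (horizontal axis, on the log2(FPKM + 0.1) scale), with circles and standard errors for FPKM as deposited and diamonds for values after median-of-ratios factors. Each diamond lies to the left of its circle, Ripk3 is the only gene past 1, and Casp8 crosses 0.

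The balance of pro-death and pro-survival BCL2 genes was lower in HG when Bcl2 was the reference. The ratio of Bax to Bcl2, in FPKM, was 5.72 ± 0.609 in CON libraries and 4.91 ± 0.387 in HG libraries (SD, n = 5 each), and the ranges overlapped between 5.08 and 5.45. The ratio of Bak1 to Bcl2 was 3.16 ± 0.397 in CON and 2.50 ± 0.188 in HG, and the lowest CON and the highest HG library both rounded to 2.68. With Bcl2l1 as the reference the order was the opposite. The ratio of Bax to Bcl2l1 was 11.7 ± 1.21 in CON and 14.0 ± 1.68 in HG, with overlap. The ratio of Bcl2 to Bcl2l1 was 2.07 ± 0.386 in CON and 2.86 ± 0.208 in HG, without overlap. The summed FPKM of Bax and Bak1 over that of Bcl2 and Bcl2l1 was 5.92 ± 0.345 in CON and 5.48 ± 0.234 in HG, and the groups overlapped.

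**Figure D3:**
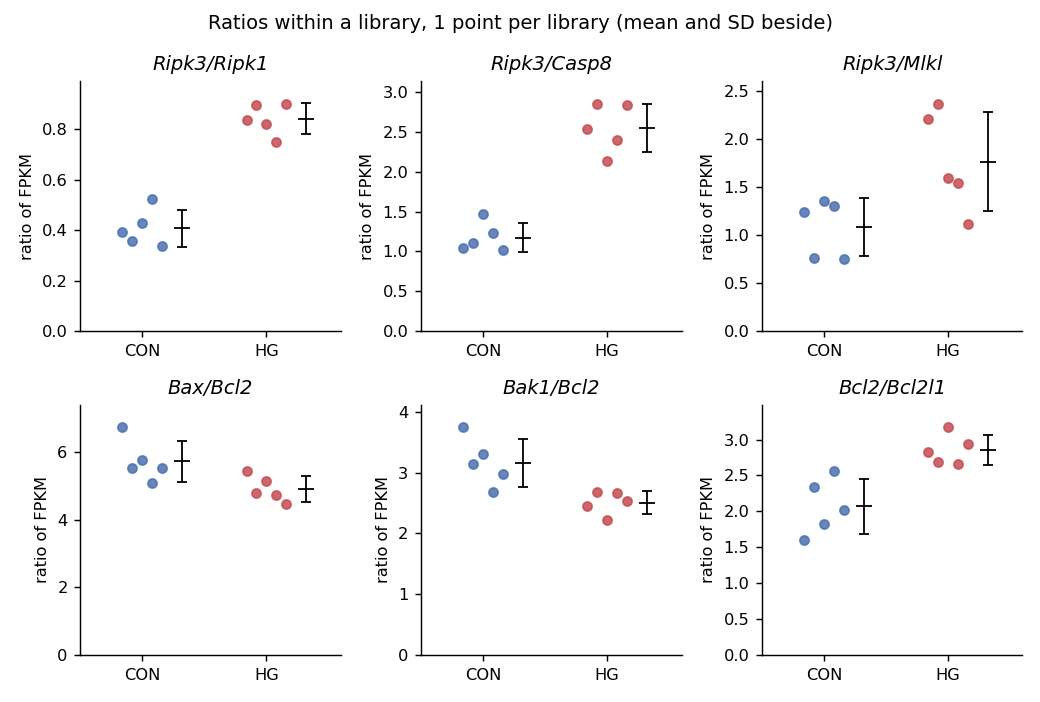
Ratios of FPKM between pairs of the 9 genes within each library (vertical axes, from 0), with 1 point per library and the mean with the SD of 5 libraries beside them. HG points lie above CON points for Ripk3 over Ripk1, Ripk3 over Casp8 and Bcl2 over Bcl2l1, and the groups meet or overlap for the other 3 ratios.

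In FPKM, which is a level per gene length, the order in CON hearts from highest to lowest was Bax, Bak1, Casp9, Bcl2, Ripk1, Bcl2l1, Ripk3, Mlkl and Casp8. Neighbours in this order whose ranges over the 5 CON libraries overlapped were Casp9 and Bcl2, Ripk1 and Bcl2l1, Ripk3 and Mlkl, and Mlkl and Casp8. In HG hearts Bcl2 stood above Casp9 and Ripk3 above Bcl2l1. The ranges of Ripk3 and Bcl2l1, and of Bcl2l1 and Mlkl, overlapped in HG, whereas those of Mlkl and Casp8 did not. The gene length that the authors divided by decides part of this order. It was 1179 bases for Bcl2 and 13561 bases for Bcl2l1, so that Bcl2 had 151 to 247 reads in a library and Bcl2l1 797 to 1084. In reads, which are not a level per length, the ratio of Bcl2 to Bcl2l1 was 0.180 in CON and 0.248 in HG.

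Deviations of the 9 genes from their group means, on the log2(FPKM + 0.1) scale, were compared over the 10 libraries as a description. Bcl2 and Bcl2l1 had the most negative correlation (-0.83), that is, libraries with more Bcl2 than their group had less Bcl2l1. Ripk1 deviated with Bcl2l1 (0.72) and with Casp9 (0.69), and Casp8 with Bax (0.63). Ripk3 and Mlkl had a correlation of -0.39. These points share libraries, depth and scaling. Over so few libraries and so many genes, high correlations also arise by chance, and their expected number was not computed. Among the 11708 genes that averaged 1 FPKM or more, the genes most like Ripk3 were Rabgef1 (0.90), Cidea (0.90) and Gpr27 (0.90), and 37 genes had a correlation of at least 0.8. The genes most like Bcl2 were Styx (0.93), Tle6 (0.91) and Mrm3 (0.91), with 39 genes at or above 0.8. Mlkl had 299 such genes, led by Arfgef1 (0.98), Rps6kb1 (0.98) and Luc7l2 (0.97). For these 3 the correlation with Mlkl over the 9 libraries without HG replicate 5 was 0.96, 0.95 and 0.93.

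The other genes of these pathways were described with 11 lists, which hold 106 genes outside the 9. The test was run on 100, of which 26 rose and 14 fell in HG at an adjusted p under 0.05 (limma). This is 40.0%, against 40.1% of all genes tested, and none was past a 2-fold change, which 1.94% of all genes were. Under median-of-ratios factors the counts were 17 higher and 23 lower, and under quantile normalization 16 and 18. Zbp1, Faslg, Lta, Bcl2l10, Bcl2l14 and Aim2 were below a mean of 0.1 FPKM and were not tested. Without CON replicate 3 the counts were 24 and 14. Of the called genes that the naming rule picked from these lists, none changed its direction in any of the alternatives.

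**Figure D4:**
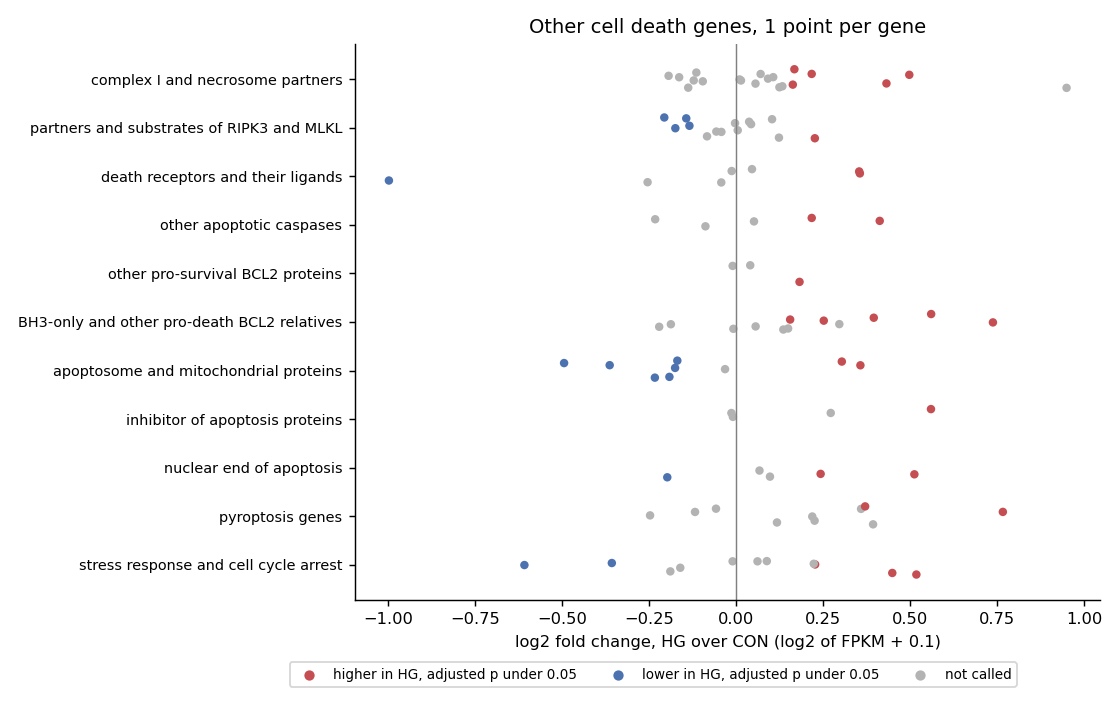
Log2 fold change of HG over CON (horizontal axis, log2(FPKM + 0.1) scale) for the 100 tested genes of 11 lists of cell death genes, 1 point per gene, coloured where the adjusted p was under 0.05 with limma. Of the coloured points 26 lie to the right of 0 and 14 to the left, and none lies past 1 or -1.

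Among 20 tested partners of the TNF receptor complex and the necrosome, 5 rose and 0 fell. This is 25.0%, beside 40.1% of all genes tested. Tab2, an adaptor of the kinase TAK1, rose from 18.9 ± 0.563 to 21.9 ± 0.683 FPKM (SD, n = 5 each; limma adjusted p = 0.000839). Map3k7, which encodes TAK1 itself, was higher by 0.17 on the log2 scale (limma adjusted p = 0.0109), a call that was lost under median-of-ratios factors and quantile normalization. The other 3 that were called, Tnfrsf1a, Tlr3 and Tlr4, are receptors upstream of RIPK1 and RIPK3, with log2 differences of 0.16, 0.50 and 0.43. The calls of Tnfrsf1a and Tlr4 were lost under both other scalings. Under either other scaling 2 genes of the list were higher and 2 lower. Fadd, Cflar, Tradd and Traf2 were not called. Fadd, the adaptor of caspase-8, had 11.3 ± 1.45 FPKM in CON and 10.1 ± 1.41 in HG, and Cflar, its decoy inhibitor, 2.70 ± 0.171 and 2.45 ± 0.233. Tnf, the ligand, had under 0.4 FPKM in every library and was not called.

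Among 14 partners and substrates of RIPK3 and MLKL, 1 rose and 4 fell, a share of 35.7% beside 40.1% of all genes tested. Under median-of-ratios factors 1 gene of the list was higher and 7 lower, and under quantile normalization 2 and 5. Pgam5, a mitochondrial phosphatase that RIPK3 can engage, rose from 24.1 ± 0.736 to 28.2 ± 0.664 FPKM (SD, n = 5 each; limma adjusted p = 0.000403). Vps4a, an ATPase of the membrane repair machinery, fell from 41.3 ± 1.52 to 37.4 ± 0.423 FPKM (limma adjusted p = 0.0053). Hsp90aa1, a chaperone of the RIP kinases and MLKL, fell by 0.17 on the log2 scale (limma adjusted p = 0.0149). The other 2 that fell were Ppif, which encodes cyclophilin D of the permeability pore, by 0.21, and Ppm1b, a phosphatase that acts on RIPK3, by 0.13. Camk2d, the cardiac CaMKII gene, was not called.

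Of 7 tested genes of death receptors and their ligands, 2 receptors rose and 1 ligand fell. This is 42.9%, beside 40.1% of all genes tested. Tnfrsf10b, the receptor of TRAIL, rose from 6.83 ± 0.559 to 8.75 ± 0.512 FPKM (SD, n = 5 each; limma adjusted p = 0.00121), and Tnfrsf21 rose by 0.35 on the log2 scale (limma adjusted p = 0.00778), a call lost under quantile normalization. Tnfsf10, which encodes TRAIL, fell from 0.176 ± 0.0670 to 0.0374 ± 0.0280 FPKM (limma adjusted p = 0.00641), a difference of -0.997 on the log2(FPKM + 0.1) scale that rests on few reads.

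Of 5 other apoptotic caspases, 2 rose and 0 fell, a share of 40.0% beside 40.1% of all genes tested. Under either other scaling 1 gene of the list was higher and 1 lower. Casp6, an executioner caspase, was higher by 0.22 (limma adjusted p = 0.0231), a call lost under both other scalings and without CON replicate 5, HG replicate 3 or HG replicate 4.

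Of 12 BH3-only and other pro-death relatives of BCL2, 5 rose and 0 fell. This is 41.7%, beside 40.1% of all genes tested. Bid, which carries the signal of caspase-8 to BAX and BAK, rose from 2.45 ± 0.310 to 4.14 ± 0.278 FPKM (SD, n = 5 each), a log2 difference of 0.74 (limma adjusted p = 8.74e-05). Bmf rose by 0.25 (limma adjusted p = 0.00662), and the other 3 were Bik, Pmaip1 and Bnip3, higher by 0.40, 0.56 and 0.16. The call of Bik was lost under both other scalings, that of Bnip3 under median-of-ratios factors, and those of Pmaip1 and Bmf under quantile normalization. Under median-of-ratios factors 3 genes of the list were higher and 1 lower, and under quantile normalization 2 and 1. Of 3 other pro-survival genes, Bcl2l2 alone was called (33.3%), higher by 0.18 (limma adjusted p = 0.0109), and the call was lost under both other scalings. Mcl1 and Bcl2a1 were not called.

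The genes around the apoptosome and the mitochondrial proteins released in apoptosis had 2 that rose and 6 that fell among 9. This is 88.9%, beside 40.1% of all genes tested. Apaf1, the scaffold of the apoptosome, rose from 5.27 ± 0.242 to 6.77 ± 0.271 FPKM (SD, n = 5 each; limma adjusted p = 0.000316), and Htra2, a mitochondrial protease, rose from 29.2 ± 1.44 to 36.0 ± 1.21 FPKM (limma adjusted p = 0.000165). Cycs, cytochrome c, fell from 407.8 ± 23.3 to 317.8 ± 30.9 FPKM (limma adjusted p = 0.000792). Aifm1, apoptosis inducing factor, fell by 0.19 on the log2 scale (limma adjusted p = 0.00207). The other 4 that fell were Endog, by 0.49, and the channel genes Vdac1, Vdac2 and Vdac3, by 0.23, 0.17 and 0.18, of which the calls of Vdac2 and Vdac3 were lost under quantile normalization. Besides their part in cell death, cytochrome c, AIF and the VDAC channels serve respiration and metabolite exchange. Under median-of-ratios factors 2 genes of the list were higher and 7 lower, and under quantile normalization 2 and 4.

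Among the remaining lists, Birc5, which encodes survivin and also serves cell division, rose from 22.2 ± 1.09 to 32.7 ± 1.11 FPKM (SD, n = 5 each; limma adjusted p = 2.47e-06). It was the only one of 4 inhibitor of apoptosis genes called (25.0%, beside 40.1% of all genes tested). Of 5 genes at the nuclear end of apoptosis, 60.0% were called. Lmnb1 (lamin B1) rose by 0.51 (limma adjusted p = 1.57e-06) and Acin1 by 0.24 (limma adjusted p = 0.00195), whereas Dffa, the inhibitor of the DNase of apoptosis, fell by 0.20 (limma adjusted p = 0.00411). In a list of 11 stress response and cell cycle arrest genes, 3 rose and 2 fell (45.5%), and under either other scaling 2 were higher and 2 lower. Sesn2 rose by 0.45 (limma adjusted p = 0.000326) and Zmat3 by 0.23, a call lost under both other scalings, whereas Ccng1 fell by 0.61 (limma adjusted p = 1.58e-05) and Perp by 0.36 (limma adjusted p = 0.000207). Of 10 pyroptosis genes, 2 were called, and under either other scaling 1 was higher and 1 lower. Nlrc4 was higher by 0.77 (limma adjusted p = 0.00941) at a level under 0.3 FPKM in each library, and Pycard by 0.37 (limma adjusted p = 0.0422), a call that held in 6 of 21 alternatives.

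The KEGG annotation deposited with the table gives lists that were not written by hand. Of 125 tested genes annotated to necroptosis beside the 9 genes, 32 rose and 14 fell, a share of 36.8%. Of 118 annotated to apoptosis, 39 were higher and 17 lower, which is 47.5%, and the share among all genes tested was 40.1%. Under median-of-ratios factors the counts were 17 and 28 for necroptosis and 21 and 28 for apoptosis. After quantile normalization they were 20 and 19 for necroptosis and 28 and 23 for apoptosis. Over all 14542 genes tested, 4822 were called with the factors and 4932 after quantile normalization. Among genes annotated to necroptosis that are in none of the 11 lists, the 4 that rose and the 4 that fell with the smallest adjusted p are given. Macroh2a2, a histone variant, rose from 8.73 ± 1.06 to 17.1 ± 0.983 FPKM (SD, n = 5 each; limma adjusted p = 3.39e-06). Hmgb1, a nuclear protein released by dying cells, rose by 0.39 (limma adjusted p = 9.24e-05), and Macroh2a1 and H2az1 by 0.35 and 0.31. Those that fell were Slc25a4 and Slc25a5, the ADP/ATP carriers, by 0.56 and 0.27, Pygm, muscle glycogen phosphorylase, by 0.51, and Smpd1 by 0.26. The histone genes hist1h2ail2 (log2 difference 1.09) and Hist2h2aa3 (-1.15) were the only genes of this list past a 2-fold change, were named after their values were seen, and reads of such near-identical copies are uncertain. Among those annotated to apoptosis, likewise outside the lists, Atf4, Nras and Csf2rb rose by 0.30, 0.26 and 0.96, and Map3k5, Hras, Gadd45a and Parp4 fell by 0.52, 0.28, 0.43 and 0.74.

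The genes next to the 9 on their chromosomes were read from the RefSeq order (GRCr8) to see whether neighbours moved too. Of 36 neighbours, 32 were tested, and 7 were higher and 4 lower, which is 34.4%, beside 40.1% of all genes tested. Beside Ripk3, Nynrin was higher by 0.30 (limma adjusted p = 0.000953) and Adcy4 by 0.28 (limma adjusted p = 0.0157), and Nfatc4 was not called. Beside Bcl2, Kdsr was higher by 0.45 (limma adjusted p = 0.00294) and Vps4b by 0.16 (limma adjusted p = 0.0183). The 3 tested neighbours of Mlkl were not called.

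A lower or higher level in whole hearts cannot be told apart from fewer or more cells that carry the mRNA, and cell type markers also differed between the groups. Of the 6 cardiomyocyte markers 5 were lower in HG and Nppa was higher, with a summed level of 9390 to 10000 FPKM in CON and 8586 to 10100 in HG. All 5 markers of proliferating cells were higher, and their sum was 337.4 to 379.6 FPKM in CON and 445.3 to 499.3 in HG (two-sided exact permutation test, p = 0.00794, the smallest that 5 against 5 allow, and 0.0371 adjusted over 14 lists). RIPK3 and MLKL are abundant in macrophages. The macrophage sum was 34.6 to 43.9 FPKM in CON and 37.3 to 51.1 in HG (exact permutation test, p = 0.27), with 3 of its 8 markers higher (Cd68, Adgre1 and C1qa), 2 lower (Cd163 and Lyz2) and 3 not called. Lymphocyte genes summed to 0.283 to 0.906 FPKM in CON and 0.578 to 0.812 in HG, and Cd3e was under 0.1 FPKM in every library. The red cell sum was lower in HG, at 7008 to 12560 FPKM in CON and 5173 to 7258 in HG (exact permutation test, p = 0.0159, 0.0445 adjusted). The smooth muscle and epicardial sums were higher in HG (exact permutation test, p = 0.00794 each, 0.0371 adjusted). Of the 5 smooth muscle markers 2 were higher (Acta2 and Tagln), 1 was lower (Rgs5, by 0.31) and 2 were not called. Of the 3 epicardial markers Tbx18 alone was called, higher by 0.52. Under median-of-ratios factors the unadjusted p was 0.0238 for the smooth muscle sum and 0.00794 for the epicardial sum (exact permutation test). The liver sum was lower in HG (exact permutation test, p = 0.0159, 0.0445 adjusted). The log2 ratio of the liver sum was -4.45, and without CON replicate 3 it was -2.19 (exact permutation test, p = 0.0317). The fibroblast, neutrophil, endothelial, megakaryocyte and thymus sums did not pass after adjustment (exact permutation test, adjusted p of 0.0555, 0.0952, 0.37, 0.403 and 0.821), nor did the cardiomyocyte, macrophage and lymphocyte sums (0.264, 0.378 and 0.527). The fibroblast sum had a log2 ratio of -0.154, and of -0.245 under median-of-ratios factors (exact permutation test, unadjusted p = 0.0238 and 0.00794). Of the lung epithelium list 2 genes were listed, and their sum was at most 0.118 FPKM. The part of these cells in the values of the 9 genes was not tested.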

How the data were processed

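Fetal heart mRNA was sequenced from stranded libraries, and the authors deposited FPKM (reads per gene length and library size) for 5 CON and 5 HG libraries. Their processing notes name fastp, HISAT2, HTSeq, R 3.2.0 and build mRatBN7.2, and the methods also speak of pooled RNA. The labels give heart tissue, while a legend in the study speaks of isolated cardiomyocytes. The libraries also held mRNA of other cell types. Means in CON and HG were 580.6 and 533.1 FPKM for Col1a1 (fibroblast), 64.9 and 62.2 for Pecam1 (endothelium), and 7587 and 5199 for Hba-a1 (red cell). All per-sample columns were used (0 unused). The deposited unit is not a count, so the count test named in the methods was not used here. Genes that averaged 0.1 FPKM or more were therefore compared on log2(FPKM + 0.1), which understates changes of low genes, with limma 3.58.1 (R 4.3.3; trend on expression, no covariate, Benjamini-Hochberg), and tested on simulated data. All values of 18025 genes were whole multiples of 1 read (100% within 0.02 reads), and gene lengths were solved from the same steps. Voom was run on those reads and called 5960 genes, against 5836. Marker sums were set against each other by exact permutation (two-sided) in Python 3.11.15 (scipy 1.17.1).

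The 9 genes, the 11 pathway lists and the 14 marker lists were chosen with earlier results of these data known. Named are the 9 genes, in each list up to 2 higher and 2 lower genes with the smallest adjusted p, in each KEGG annotation up to 4 of each not in a list, and the 3 genes most like each of 3 members by deviations from group means. Tnfrsf1a, Tlr3, Tlr4, Ppif, Ppm1b, Bik, Pmaip1, Bnip3, Endog, Vdac1, Vdac2, Vdac3, Zmat3 and the genes given as not called were named after their values were seen. The fit was repeated with a pseudocount of 1 or 0.01, without a filter or with one at 1 FPKM, with quantile normalization or median-of-ratios factors, without hemoglobin genes, without the trend, with voom, with the summed Y chromosome genes as covariate, with replicate number as block, with the 2-fold threshold, and without each of the 10 libraries. Some genes of the lists are not reported here.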

Additional observations from a re-analysis of the deposited data

Results flagged for a closer look

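A gap test was applied to 130 groups of 5 values (the genes named by rule and the marker sums, in CON and in HG), in which the gap between an extreme library and its nearest neighbour was divided by the range of the group. The gap passed 0.71 in 9 of them, and chance flags about 1 in 20 groups. None of the 18 groups of values of the 9 cell death regulators was among them.

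HG replicate 5 had 19.7 FPKM of Map3k7 against 17.7 to 17.95 in the other HG libraries (gap 0.86), and 288.1 FPKM of H2az1 against 323.1 to 330.8 (gap 0.82). HG replicate 3 had 2.13 FPKM of Tnfrsf21 against 2.56 to 2.70 (gap 0.751), and a lymphocyte sum of 0.812 FPKM against 0.578 to 0.608 (gap 0.873). HG replicate 4 had a proliferating cell sum of 499.3 FPKM against 445.3 to 456.9 (gap 0.786). Among CON libraries, replicate 4 had 22.8 FPKM of Pgam5 against 24.2 to 24.6 (gap 0.773), and replicate 1 had 2.01 FPKM of Csf2rb against 1.27 to 1.48 (gap 0.715). CON replicate 5 had a smooth muscle sum of 684.1 FPKM against 768.0 to 798.6 (gap 0.733). CON replicate 3 had a liver sum of 69.2 FPKM against 0.936 to 5.43 in the other CON libraries (gap 0.934).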

How the results depend on the processing

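The cell death regulators were chosen with this contrast known, so how often they passed the threshold describes that choice and carries no test. Over all genes, the 21 alternatives called between 4822 genes (median-of-ratios factors) and 5960 genes (voom), against 5836 in the main fit. Ripk3 and Bcl2 were past the threshold in each of 21 alternatives, with log2 fold changes of 0.86 to 1.21 and 0.33 to 0.46. Bax was past it in 13, and not with hemoglobin genes left out, median-of-ratios factors, quantile normalization or no trend, nor without CON replicate 3, CON replicate 5, HG replicate 1 or HG replicate 3. Mlkl was past it in 4 (the replicate block, and without CON replicate 5, HG replicate 1 or HG replicate 2). The other 5 genes were past it in none, and Casp8 turned to -0.03 under both median-of-ratios factors and quantile normalization. Of the genes in the 11 lists, 17 were higher and 23 lower under median-of-ratios factors, and 16 were higher under quantile normalization. With the 2-fold threshold, 282 genes of the whole table, 0 of the lists (0 higher, 0 lower) and 2 of the KEGG annotations were counted. The cardiomyocyte sum passed its test under median-of-ratios factors (log2 ratio -0.17, exact permutation p = 0.0317), and the endothelial sum turned to -0.055. With each library left out in turn, the log2 ratio of the cardiomyocyte sum lay between -0.11 (without HG replicate 4, the only one where it passed, exact permutation p = 0.0159) and -0.055 (without HG replicate 5). It lay between -1.57 (without HG replicate 4) and -0.81 for neutrophils, whose exact permutation p then reached 0.0952, and between -0.17 (without CON replicate 1) and 0.12 (without CON replicate 4) for the thymus. For liver it lay between -4.76 and -2.19 (without CON replicate 3). It lay between 0.07 (without CON replicate 1) and 0.50 (without CON replicate 3) for lymphocytes, between 0.056 (without HG replicate 4) and 0.17 for macrophages, and between -0.29 and -0.08 (without HG replicate 4) for megakaryocytes. None of the last 3 passed its test in any of these. The cause was not tested.

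Replicate numbers shared by the groups did not pair the libraries, since deviations of same-numbered libraries correlated between -0.13 and 0.11 and 0 of 5 CON libraries correlated best with their own number. With the replicate block 5096 genes were called, among them 39 of the 100 list genes. The depth of 54 to 91 reads for Mlkl in 9 of 10 libraries, and of 57 to 81 for Ripk3 in CON, limits the precision of their values. The methods speak of pooled RNA, litters are not given, and the levels are relative to the library.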
